A study of Ovis aries with 32 samples.

Results

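TAF2, ING3 and DDX3X are 3 genes of transcription and chromatin, and each was measured by 1 of the 15008 probes (A_70_P065676 for TAF2, A_70_P015561 for ING3 and A_70_P001821 for DDX3X) of a sheep microarray in the hearts of lambs at 14 days of age. The 3 probes were chosen from the genes that the study lists as different in the left ventricular free wall (LV) between lambs of cortisol-infused and untreated ewes, so their LV difference is what selected them and is described here without a test. ING3 is listed for the interventricular septum (IVS) as well, and its IVS difference is described in the same way. The differences of TAF2 and DDX3X in the IVS and the comparison of the 2 tissues did not enter the choice and were tested. The same holds for the relations between the 3 genes among lambs of 1 group. The size of the spread between lambs is only described.

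The lambs were born to ewes infused with cortisol at 0.5 mg/kg/day from 2100 h to 0900 h each day, from day 115 of gestation until delivery (CORT), or to ewes that received no infusion (Control). The lambs themselves were not treated. The LV and the IVS of 8 lambs per group were hybridised, 1 tissue of 1 lamb to each of 32 arrays. The controls had no vehicle infusion, and each group of ewes bore a set of twins, so not every lamb had a mother of its own and p-values over lambs take no account of that. Both groups held male and female lambs, but the sample labels do not give the sex of each lamb.

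TAF2 is a subunit of TFIID, the complex that binds core promoters and starts the assembly of RNA polymerase II with its general factors. Within TFIID it lies close to the initiator element at the start of transcription. ING3 is a member of the inhibitor of growth family, whose plant homeodomain finger reads trimethylated lysine 4 of histone H3, and it belongs to the NuA4/TIP60 histone acetyltransferase complex. DDX3X is an X-linked DEAD-box RNA helicase that unwinds structured leader sequences of mRNA during translation initiation, and it also takes part in RIG-I-like receptor signalling. Its partner on the Y chromosome is DDX3Y. All 3 genes are expressed in many tissues.

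The probes are 60 bases long and lie on expressed sequence tags to which the array files attach no gene symbol. The study's list gives gene symbols without probes. The names TAF2, ING3 and DDX3X therefore rest on a match between the values of that list and those of the probes, made in earlier work on these data, and not on the probe sequence. No other probe is named in the files as one of the 3 or as DDX3Y. The sequences of the probes for ING3 and DDX3X are shown because these 2 carried opposite values in the IVS.
ING3: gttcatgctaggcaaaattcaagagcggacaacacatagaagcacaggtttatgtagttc
DDX3X: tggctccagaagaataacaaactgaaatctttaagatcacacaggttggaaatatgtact
The G and C content was 41.7% for the ING3 probe, 35% for the DDX3X probe and 38.3% for the TAF2 probe. Which exon or end of its transcript each probe reads was not analysed here.

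All 3 probes were well above background on 32 of 32 arrays and saturated on 0. The intensity of the TAF2 spot lay between 787 and 3226 and was 17.9 to 59.7 times the local background. The ING3 spot lay between 343 and 835, at 6.09 to 21.4 times the background. The DDX3X spot lay between 149 and 885 and at 3.66 to 18.2 times the background. Levels of different probes depend on the probe as well as on the transcript, so they are not compared between the genes.

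The median spot intensity of an array ranged from 139 to 217 in the LV and from 131 to 332 in the IVS. The LV arrays lay on slides 1 and 2, where both slides held 4 Control and 4 CORT lambs, and the IVS arrays on slides 3, 4 and 5. There were 2 Control and 2 CORT lambs on slide 3, 3 Control and 2 CORT lambs on slide 4, and 3 Control and 4 CORT lambs on slide 5. Slide 5 was scanned on the same day as the LV slides, whereas slides 3 and 4 were each scanned in another session. Values within slides are therefore given beside those of the tissue. The heart muscle markers that the files name, MB and TPM1, which encode myoglobin and a tropomyosin, were bright in every group, with a mean log2 intensity between 17.5 and 18.4 over all arrays.

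In the LV, the normalized log2 intensity of TAF2 ranged from 9.92 to 10.51 in the Control lambs, with a median of 10.21. In the CORT lambs it ranged from 10.30 to 10.94, with a median of 10.53. The ranges overlapped, but 4 of 8 CORT lambs lay above the highest Control lamb and 5 of 8 Control lambs lay below the lowest CORT lamb. For counts of lambs beyond the range of the other group, here and below, the share over all probes was not computed. Control lambs averaged 10.21 ± 0.19 (SD, n = 8) and CORT lambs 10.55 ± 0.20 (SD, n = 8), a log2 difference of 0.35 (SE 0.092), or 1.27-fold. All 8 CORT lambs were above the Control mean, as was the case for 1.46% of the 11518 LV probes tested. The difference was 0.31 on slide 1 and 0.38 on slide 2. Within groups, TAF2 had an r of -0.60 with the percentage of probes well above background on the array, a description over 16 lambs. The array with the highest TAF2 level, that of CORT replicate 6, had the lowest such percentage of the LV, 59.7%. The difference was 0.29 without that lamb and at most 0.39 with any other left out, and the part of array quality in it was not tested. Whether a probe reads more RNA per cell or more cells of a kind that express the gene cannot be told apart in whole tissue.

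For ING3 the Control lambs of the LV spanned 8.75 to 9.49, with a median of 8.94. The CORT lambs spanned 8.80 to 9.55, with a median of 9.42. The groups overlapped over most of their range, since the highest Control lamb, replicate 1, was above 7 of the 8 CORT lambs and the lowest CORT lamb, also numbered replicate 1, was among the Control values. Control lambs averaged 9.02 ± 0.26 (SD, n = 8) and CORT lambs 9.32 ± 0.25 (SD, n = 8). The log2 difference was 0.31 (SE 0.12), or 1.24-fold, and 7 of 8 CORT lambs were above the Control mean. At least 7 were above it for 7.42% of the LV probes tested. Within slides the difference was 0.26 on slide 1 and 0.36 on slide 2. Leaving out 1 lamb moved it between 0.27 and 0.38.

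DDX3X differed from the other two genes in how evenly the lambs shared the difference. The 8 Control lambs of the LV lay close together, from 7.74 to 7.91 with a median of 7.84. The CORT lambs ranged from 7.78 to 9.16 with a median of 8.02. CORT replicate 1, at 9.16, stood far above the other 7 CORT lambs, of which the highest was 8.20. Control lambs averaged 7.84 ± 0.064 (SD, n = 8) and CORT lambs 8.13 ± 0.43 (SD, n = 8), a log2 difference of 0.30 (SE 0.14), or 1.23-fold. Without CORT replicate 1 it was 0.15, and the difference between the group medians was 0.18. In all, 6 of 8 CORT lambs lay above the highest Control lamb and 7 of 8 above the Control mean. Within slides the difference was 0.41 on slide 1, which holds CORT replicate 1, and 0.18 on slide 2.

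As the background to these 3 genes, 444 of 11518 LV probes had an unadjusted p under 0.05 in limma, which is 3.85%, and 0 probes (0%) passed after Benjamini-Hochberg adjustment. The lowest adjusted p of any LV probe was 0.999. The median log2 difference over all LV probes tested was 0.0015.

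**Figure D1:**
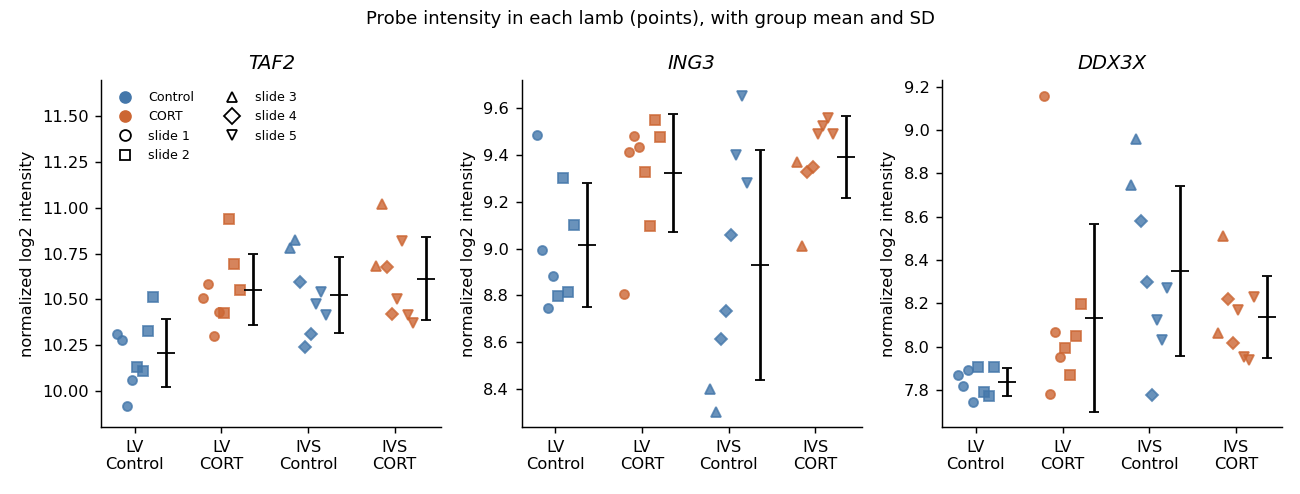
Normalized log2 intensity of the TAF2, ING3 and DDX3X probes in each lamb (points, shaped by slide) for Control and CORT lambs of the LV and the IVS, with the group mean and SD in black (n = 8 lambs per group). The scale differs between panels, and each tissue was normalized by itself, so LV and IVS values are not to be compared here. CORT replicate 1 is the single LV point at 9.16 for DDX3X, and the IVS Control lambs of ING3 spread from 8.30 to 9.65.

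In the IVS, the TAF2 values of the Control lambs spanned 10.24 to 10.83, with a median of 10.51, and those of the CORT lambs 10.37 to 11.02, with a median of 10.59. The groups overlapped over most of their range, with 1 CORT lamb above the highest Control lamb and 2 Control lambs below the lowest CORT lamb, and of the 8 CORT lambs 4 lay above and 4 below the Control mean. Control lambs averaged 10.52 ± 0.21 (SD, n = 8) and CORT lambs 10.61 ± 0.23 (SD, n = 8). The log2 difference of 0.091 (SE 0.11) was smaller than the spread between lambs (adjusted p = 0.993 in limma; two-sided exact permutation p = 0.419). Its 95% interval ran from -0.14 to 0.32. The LV and IVS differences were not tested against each other, because the LV difference selected the gene.

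DDX3X was lower in the CORT than in the Control lambs of the IVS, the opposite side from the LV, but within the spread. Its Control lambs spanned 7.77 to 8.96, with a median of 8.29, and its CORT lambs 7.94 to 8.51, with a median of 8.12. Control lambs averaged 8.35 ± 0.39 (SD, n = 8) and CORT lambs 8.14 ± 0.19 (SD, n = 8), a log2 difference of -0.21 (SE 0.15; adjusted p = 0.993 in limma; two-sided exact permutation p = 0.193). The 95% interval ran from -0.52 to 0.097. In 7 of 8 CORT lambs the level was below the Control mean, and at least 7 were below it for 12.3% of the 11685 IVS probes tested. The highest Control values, 8.75 and 8.96, were those of the lambs on slide 3. Their arrays had the highest median spot intensities of the IVS, 266 and 332. Within IVS groups DDX3X had an r of 0.69 with the log2 of that intensity, and the part of array brightness was not tested. Without Control replicate 2 the difference was -0.12. Taken slide by slide, it came to -0.57 for slide 3, -0.10 for slide 4 and -0.069 for slide 5.

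ING3 had the largest IVS difference of the 3 genes, in the same direction as in the LV. Control lambs ranged widely, from 8.30 to 9.65 with a median of 8.90. CORT lambs ranged from 9.01 to 9.56 with a median of 9.43, and 4 of 8 Control lambs lay below the lowest of them. No CORT lamb exceeded the highest Control lamb. Control lambs averaged 8.93 ± 0.49 (SD, n = 8) and CORT lambs 9.39 ± 0.18 (SD, n = 8), a log2 difference of 0.46 (SE 0.17), or 1.38-fold. All 8 CORT lambs were above the Control mean, against 2.69% of all IVS probes tested, and at least 7 were above it for 8.6%.

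The IVS difference of ING3 varied with the slide. It was 0.84 on slide 3, where the 2 Control lambs were the lowest of the tissue, 0.54 on slide 4 and 0.072 on slide 5. The arrays of those 2 Control lambs were the brightest of the IVS, with median spot intensities of 266 and 332. Within groups ING3 had an r of -0.78 with the log2 of that intensity. The part of array brightness in the difference was not tested. On slides 3 and 4 every CORT lamb was above every Control lamb. On slide 5 the 3 Control lambs ranged up to 9.65, above all 4 CORT lambs. Slide 5 was the only IVS slide scanned together with the LV arrays, and the part of the scanning session in the difference was not tested. With slide as a block the IVS difference was 0.41, and it ranged from 0.37 to 0.56 when 1 lamb was left out.

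Over the whole IVS, 419 of 11685 probes had an unadjusted p under 0.05, or 3.59%, and 0 (0%) passed after adjustment, the lowest adjusted p being 0.993. Neither TAF2 nor DDX3X was among the 419, with unadjusted limma values of 0.417 and 0.167. The median log2 difference over all IVS probes was -0.0082.

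**Figure D2:**
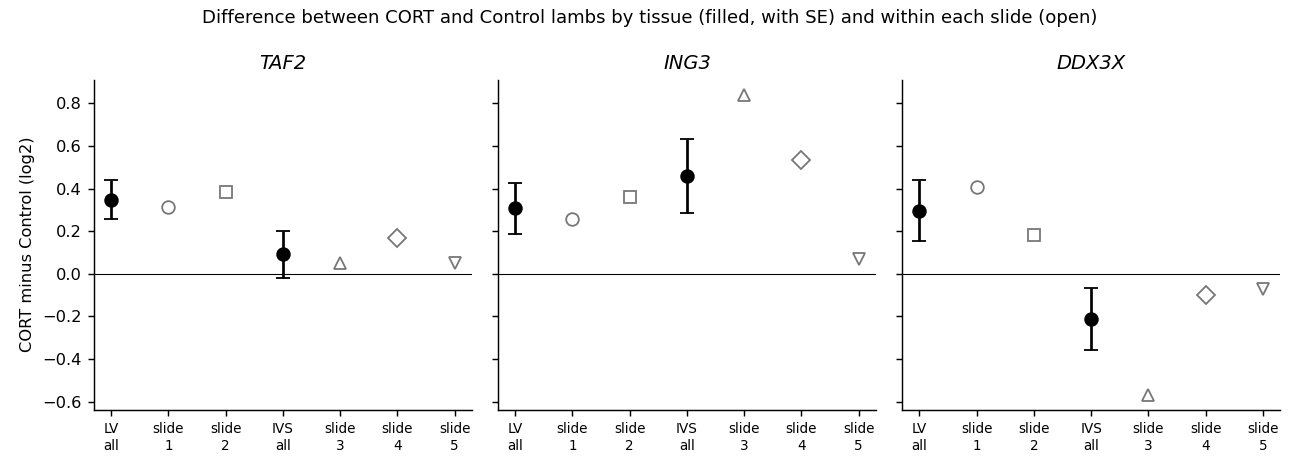
Log2 difference of CORT minus Control lambs for each gene, over all 8 lambs per group of a tissue (filled points, with the standard error of the limma fit) and within each slide (open points, no error given). For ING3 the values on slides 3, 4 and 5 are 0.84, 0.54 and 0.072, and for DDX3X the LV and IVS values lie on opposite sides of 0.

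When all 32 arrays were normalized together, the tissues differed in none of the 3 genes beyond the variation between slides. The mean log2 intensity of TAF2 was 10.45 ± 0.26 (SD, n = 16) in the LV and 10.50 ± 0.22 (SD, n = 16) in the IVS, a fitted difference of 0.064 (SE 0.12, adjusted p = 0.911 in limma with slide as a random block). ING3 was 9.24 ± 0.30 (SD, n = 16) in the LV and 9.09 ± 0.43 (SD, n = 16) in the IVS, a difference of -0.20 (SE 0.17, adjusted p = 0.712 in limma). DDX3X was 8.05 ± 0.34 (SD, n = 16) in the LV and 8.18 ± 0.31 (SD, n = 16) in the IVS, a difference of 0.15 (SE 0.19, adjusted p = 0.842 in limma). The 95% intervals ran from -0.18 to 0.31 for TAF2, from -0.54 to 0.14 for ING3 and from -0.24 to 0.55 for DDX3X. Of the 12344 probes tested between the tissues, 34 passed, or 0.275%. The paper describes taking both tissues from the hearts of 8 lambs per group. The 32 arrays are then not 32 separate lambs, and this fit took no account of that.

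Each slide held 1 tissue, so a permutation could exchange only whole slides. The exact two-sided p over the 10 assignments of the slides was 0.8 for TAF2, 0.5 for ING3 and 0.5 for DDX3X, where 0.1 is the smallest that 5 slides allow. The 3 IVS slides differed from each other by more than the tissues did. ING3 averaged 8.70 for slide 3, 8.94 for slide 4 and 9.41 for slide 5, whereas the LV slides were at 9.23 and 9.26. DDX3X ran the other way, at 8.50, 8.11 and 8.04 on slides 3, 4 and 5 against 8.10 and 8.00 on the LV slides. TAF2 was highest on slide 3, at 10.76, and between 10.37 and 10.53 on the other 4 slides.

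Against the LV, the IVS slide that was scanned with the LV slides gave a difference of the opposite sign in each gene. On those slides alone, IVS minus LV was -0.035 for TAF2, 0.15 for ING3 and -0.026 for DDX3X (adjusted p of 0.857, 0.394 and 0.927 in limma). This subset was chosen after the data were seen.

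**Figure D3:**
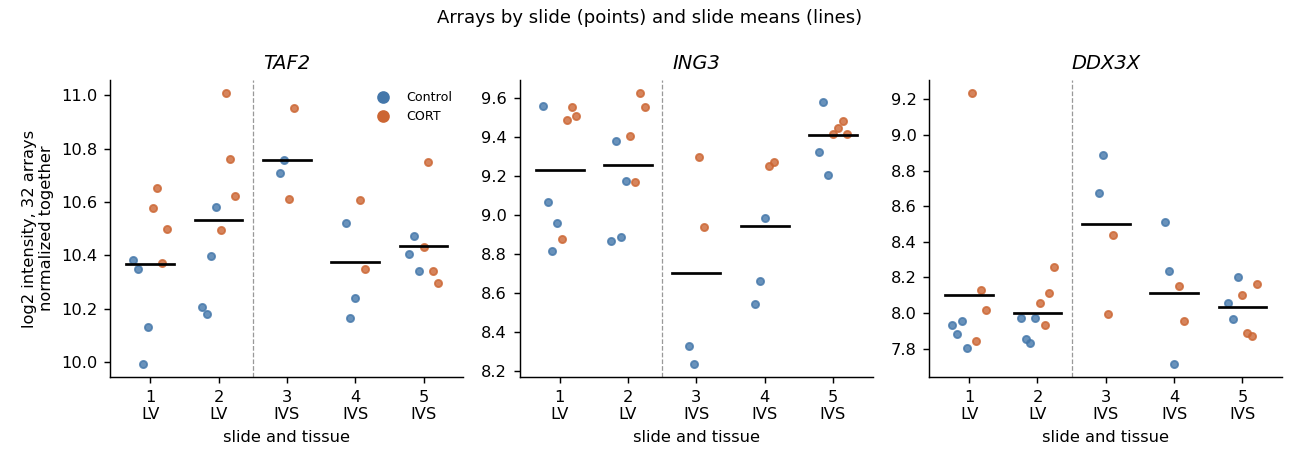
Log2 intensity of the 3 genes on each array (points) by slide, with the slide mean as a line, after the 32 arrays were normalized together. Slides 1 and 2 hold the LV and slides 3 to 5 the IVS. The slide means of ING3 run from 8.70 on slide 3 to 9.41 on slide 5, and those of DDX3X from 8.50 to 8.04.

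Lambs of 1 group were then compared among themselves, after the group mean was taken from each value. In the IVS, lambs with a high ING3 level had a low DDX3X level. Pearson's r was -0.80 over the 16 lambs (permutation p = 0.0020, adjusted p = 0.012 over the 6 relations tested) and Spearman's rho was -0.86 (permutation p = 0.00040, adjusted p = 0.0024). It was -0.81 among the Control and -0.80 among the CORT lambs. Without the 2 lambs farthest from the median of ING3, Control replicates 2 and 7, r was -0.73 and the permutation p adjusted over the relations was 0.078. With the slide means removed too, r was -0.79 (adjusted permutation p = 0.0015).

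This relation stood beside others of the same kind in the IVS arrays. The values of ING3 in the IVS had an r of -0.78 and those of DDX3X an r of 0.69 with the log2 of the array's median spot intensity, also after the group means were removed. The leading principal component of the IVS arrays held 34.1% of the variance within groups, and the size of r with it was 0.65 for ING3, 0.61 for DDX3X and 0.70 for TAF2. Over all 11606 probes with values on every IVS array, the 5th and 95th percentiles of r with ING3 were -0.69 and 0.72. The part of array brightness in the relation of ING3 with DDX3X was not tested.

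TAF2 and DDX3X varied together in the IVS, with an r of 0.64 (permutation p = 0.0063, adjusted p = 0.019) and a rho of 0.50 (permutation p = 0.061, adjusted p = 0.18). The 5th and 95th percentiles of r over all IVS probes were -0.61 and 0.65 with TAF2 and -0.66 and 0.66 with DDX3X, so this r lay within the range of most probes. It was 0.41 without CORT replicate 2 and Control replicate 2 (adjusted permutation p = 0.53) and 0.33 with the slide means removed (adjusted permutation p = 0.61). For TAF2 and ING3 in the IVS, r was -0.50 (permutation p = 0.047, adjusted p = 0.094) and rho was -0.44 (adjusted permutation p = 0.21), and without the same 2 lambs r was -0.24.

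In the LV none of the 3 relations passed. For ING3 and DDX3X, r was -0.48 (permutation p = 0.10, adjusted p = 0.16) and rho was -0.20 (adjusted permutation p = 0.65). It was -0.068 without Control replicate 1 and CORT replicate 1, the lamb with the high DDX3X and the lowest ING3 level of its group. For TAF2 and ING3, r was 0.075 and rho 0.071 (adjusted permutation p of 0.78 and 0.96), and r was 0.26 without CORT replicate 6 and Control replicate 8. For TAF2 and DDX3X, r was -0.12 and rho 0.0059 (adjusted permutation p of 0.74 and 0.99), and without the same pair of lambs r was -0.020.

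**Figure D4:**
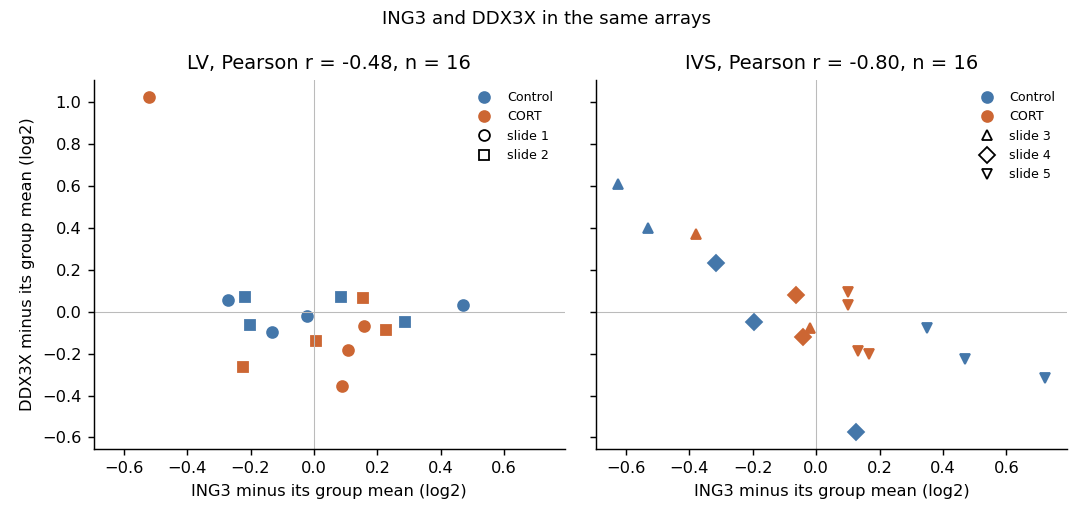
ING3 and DDX3X on the same arrays, each as the log2 difference from its group mean, in the LV (left) and the IVS (right), coloured by group and shaped by slide (16 lambs per panel). In the IVS the points fall from upper left to lower right (r = -0.80), with the lambs of slide 3 mostly at the upper left, and in the LV 1 lamb, CORT replicate 1, lies apart at the upper left.

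The spread between lambs of a group was set beside that of the other probes as a description. In the LV, and for ING3 in the IVS, this spread was part of the study's choice of genes. In the LV, the pooled SD of 0.31 for DDX3X was larger than that of 88.2% of the probes tested, and 0.26 for ING3 larger than 81.6%, while 0.19 for TAF2 was larger than 63.2%. The value of DDX3X depended on 1 lamb: without CORT replicate 1 its SD was 0.10 and larger than that of 13.7% of the probes, while ING3 was then at 0.22 (72.3%) and TAF2 at 0.20 (65.3%). This check was added after the data were seen. In the IVS the SD of 0.37 for ING3 stood at the 81.0th percentile, that of DDX3X (0.31) at the 68.8th and that of TAF2 (0.22) at the 41.2nd. The median SD over all probes was 0.16 in the LV and 0.24 in the IVS.

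Among the probes that carry 1 gene symbol, those most like each member over the 16 lambs of a tissue were taken by Pearson's r after the group means were removed, as a description with no test. Slide means were not removed. Over all IVS probes the 95th percentile of r was 0.72 with ING3, 0.66 with DDX3X and 0.65 with TAF2. Over all LV probes it was 0.45, 0.39 and 0.50. In the IVS the probes most like ING3 were those of GJA1 (r = 0.93), which encodes the gap junction protein connexin 43, PRKAA2 (r = 0.93), a catalytic subunit of AMP-activated protein kinase, and SLC16A1 (r = 0.92), the lactate carrier MCT1. Without Control replicate 7 these stayed between 0.91 and 0.95. ING3 itself had an r of -0.78 with the log2 of the array's median spot intensity in the IVS. The part of array brightness in these likenesses was not tested. In the LV the same 3 probes had r of -0.29, -0.11 and 0.038 with ING3, where FGF7 (r = 0.80), a growth factor of the fibroblast growth factor family, PSMB7 (r = 0.68), a proteasome subunit, and NDUFA12 (r = 0.67), a subunit of respiratory complex I, led instead.

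The probes most like DDX3X in the LV were those of NOG (r = 0.89), the bone morphogenetic protein antagonist noggin, MMP14 (r = 0.88), a membrane-bound matrix metalloproteinase, and AHSG (r = 0.88), the liver glycoprotein fetuin-A. All 3 depended on CORT replicate 1, without which r was 0.082, 0.47 and 0.16. In that lamb AHSG was 4.06, NOG 0.83 and MMP14 0.46 above the group mean on the log2 scale. In the IVS the leading probes were those of NUDT16 (r = 0.84), a nucleotide hydrolase that acts on RNA, CD9 (r = 0.82), a tetraspanin of the cell surface, and GRP (r = 0.76), gastrin-releasing peptide. Without Control replicate 2 these r were 0.80, 0.81 and 0.71. In the LV the r of CD9 with DDX3X was 0.75, and without CORT replicate 1 it was -0.038.

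For TAF2 in the LV the leading probes were those of UBA1 (r = 0.80), the main ubiquitin-activating enzyme, TGFBR1 (r = 0.76), a type I receptor for transforming growth factor beta, and GGCX (r = 0.69), the vitamin K-dependent carboxylase. Without CORT replicate 6 these were 0.76, 0.63 and 0.47. In the IVS they were those of CD9 (r = 0.83), ADRB3 (r = 0.80), the beta-3 adrenergic receptor, and TNNC2 (r = 0.74), troponin C of fast skeletal muscle, and without CORT replicate 2 they were 0.76, 0.75 and 0.69.

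Few genes of the complexes and pathways around the 3 genes could be named on this array, since the files and the reference table give a symbol for 1211 of 15008 probes. Of 38 genes of TFIID and the general transcription factors the only one named was TBP, the TATA-binding protein of TFIID. Its log2 difference was -0.015 (SE 0.050) in the LV and 0.083 (SE 0.10) in the IVS. Of 48 genes of RNA polymerase II and Mediator the one named was the polymerase subunit POLR2G, at -0.087 (SE 0.11) in the LV and 0.061 (SE 0.15) in the IVS. Of 42 genes of the ING family and their complexes the one named was YEATS4, a subunit of the NuA4/TIP60 complex that holds ING3, at 0.061 (SE 0.098) in the LV and -0.0099 (SE 0.10) in the IVS. None of these passed the unadjusted threshold between CORT and Control lambs in either tissue, and these genes are named, with their values seen, because each was the only one of its list with a symbol.

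Of 104 other chromatin modifiers and remodellers 3 were named, with a median log2 difference of -0.013 in the LV and -0.065 in the IVS, and 0 of the 3 had an unadjusted p under 0.05 in either tissue. Of 43 genes of RIG-I-like receptor signalling 6 were measured, 3 of them higher in CORT lambs of the LV and 2 in the IVS, with medians of -0.0083 and -0.046 and 0 of 6 at an unadjusted p under 0.05 in either tissue. Of 45 genes of translation initiation 2 were measured, with medians of -0.057 in the LV and -0.15 in the IVS. Of 57 DEAD-box and DEAH-box helicases, a list that includes DDX3X and DDX3Y, 0 had a probe with a symbol. In the LV 1 of these 2 translation genes had an unadjusted p under 0.05, against 3.85% of all LV probes. It was PABPC1, the cytoplasmic poly(A)-binding protein, at -0.20 (SE 0.087, adjusted p = 0.999 in limma), named here after its value was seen. In the IVS this probe was at -0.25 (SE 0.15), whereas the paper lists PABPC1 among the genes higher in CORT lambs there. Of 21 genes of X and Y chromosome pairs 2 were measured, with a median of 0.17 in the LV and 0.029 in the IVS. The one with an unadjusted p under 0.05 in the LV, again against 3.85% of all LV probes, was UBA1, at 0.26 (SE 0.099, adjusted p = 0.999 in limma). It was read by another probe than the one most like TAF2. Between the tissues 0 genes of these lists passed after adjustment.

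Markers of other cell types were set beside the groups as mean log2 intensity per array. The 4 endothelial markers measured lay between 8.36 and 8.83 in LV Control and between 8.57 and 8.91 in LV CORT lambs. The 4 leukocyte markers lay between 6.92 and 8.05 in LV Control and between 7.07 and 7.49 in LV CORT lambs. The 3 fibroblast markers lay between 13.29 and 13.86 in LV Control and between 13.38 and 13.69 in LV CORT lambs. In the IVS these 3 lists lay between 8.27 and 9.01, 6.86 and 7.51, and 13.10 and 13.54 in Control lambs, and between 8.54 and 8.98, 7.02 and 7.49, and 13.28 and 13.63 in CORT lambs. In the LV 1 of the 3 fibroblast and 1 of the 4 leukocyte markers had an unadjusted p under 0.05, against the 3.85% of all LV probes given above, and both are named after their values were seen. The collagen gene COL3A1 was at -0.28 (SE 0.10), while the other fibroblast markers VIM and DCN were at 0.15 and 0.078. The monocyte gene CD14 was at -0.16 (SE 0.071), and the other leukocyte markers lay between -0.44 (LYZ) and 0.15 (CD3E). The adjusted p of COL3A1 and CD14 in the LV was 0.999 in limma. Each gene of the lists was read by its brightest probe. For CD14 that was another probe in the IVS, at -0.11 (SE 0.11), and the LV difference of that probe is not given here. Over all arrays the 1 smooth muscle marker lay between 11.11 and 13.81, the 2 erythroid markers between 8.11 and 11.48 and the adipocyte markers between 8.37 and 9.57. The groups overlapped in each list, 0 of 8 genes of the conduction system were named, and the part of cell composition in the 3 genes was not tested.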

How the data were processed

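Heart RNA from lambs aged 14 days was hybridised to 32 one-colour arrays, with 8 arrays for each group and tissue, and arrays were grouped by the sample titles. The authors deposited spot intensity and local background from Feature Extraction 10.1.1.1, and a log2 matrix per tissue that they had background corrected with limma, quantile normalized and filtered for brightness. The labels and the paper's methods do not give the same RNA input or dye.

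The intensity was background corrected by normexp with an offset of 50. Quantile normalization was then run within each tissue, or over 32 arrays to compare tissues, in limma 3.58.1 (R 4.3.3, statmod 1.5.0). Control spots and outlier spots were left out. A probe was tested when it was 1.1 times brighter than the 95th percentile of the negative controls on at least 8 arrays. All 3 members passed on every array. lmFit and eBayes gave two-sided p-values with Benjamini-Hochberg adjustment over all probes tested. Slide was a random block between tissues (consensus correlation 0.259). Exact permutation tests used all 12870 assignments of 16 lambs. Correlations used 100000 permutations within groups, and 20000 for their alternatives.

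Same-numbered lambs did not deviate together in every pair (r over 0.1 in 3 of 8 pairs in the LV, 6 of 8 in the IVS, and between the tissues 2 of 8 in Control and 5 of 8 in CORT lambs). Between the tissues the median r was 0.0033 in Control and 0.20 in CORT lambs, against -0.033 and -0.042 for other numbers. The highest r of a same-numbered pair was 0.43 in Control and 0.64 in CORT lambs. Of 8 lambs, 2 in Control and 4 in CORT were most like the array of their own number. The titles number both tissues alike, but no label says that a number is 1 animal across groups or tissues. The numbers were therefore not used to pair lambs in the main fits. The members, gene lists and named genes were chosen with earlier results of these data known. The rule named the members, the 3 probes with a symbol most like each in each tissue, and list genes that passed between tissues after adjustment or had an unadjusted p under 0.05 in the IVS, of which there were 0. TBP, POLR2G, YEATS4, PABPC1, UBA1 as a list gene, COL3A1, VIM, DCN, CD14, LYZ, CD3E and the markers MB and TPM1 are named outside the rule, after their values were seen. Symbols came from the files and a RefSeq table of 35057 sheep genes (ARS-UI_Ramb_v3.0), which named 758 genes. The fits were tested on simulated data. The precision is limited by the number of arrays. The alternatives were other offsets, uncorrected signal, the scanner software's processed signal scaled to the 75th percentile, cyclic loess normalization, the log2 matrix as deposited, other brightness limits, slide or replicate number as a block, array weights, trended and robust eBayes and leaving out each lamb. Figures were drawn in Python 3.11.15.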

Additional observations from a re-analysis of the deposited data

Results flagged for a closer look

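In 2 of the 12 combinations of gene and group, 1 lamb lay apart from the other 7 by a gap beyond the 95% limit of Dixon's test. Its nominal rate is about 1 group in 20, but the share over all probes was not summed for whole groups. For single arrays that share ran up to 1.75% on the high and 1.27% on the low side in LV CORT. In IVS CORT it ran up to 1.11% and 1.39%. With 8 arrays per group, 2 of 12 is not read as more than other probes show. DDX3X in the LV of CORT replicate 1 was at 9.16, while the other 7 CORT lambs lay between 7.78 and 8.20, and the gap was 0.70 of the range. The spot of that lamb had an intensity of 582, was 18.2 times its background and carried no outlier mark. Its array had the highest percentage of probes well above background in the LV, 77.6%. Within groups DDX3X had an r of 0.52 with that percentage in the LV, a description over 16 lambs. The part of array quality in the DDX3X value was not tested. On that array 0.6% of the probes tested lay apart on the high side in the same way, where the 8 LV CORT arrays ranged from 0.235 to 1.75%. ING3 in the IVS of CORT replicate 2 was at 9.01, below the other 7 CORT lambs between 9.33 and 9.56, with a gap of 0.58 of the range. On that array 1.01% of the probes lay apart on the low side, the second highest share of the 8 IVS CORT arrays, which ranged from 0.0774 to 1.39% with a median of 0.172%.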

How the results depend on the processing

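The direction of the CORT difference held for all 3 genes in both tissues under every alternative. With other processing it ran from 0.35 to 0.38 (TAF2), 0.29 to 0.39 (ING3) and 0.29 to 0.42 (DDX3X) in the LV and from 0.086 to 0.14, 0.38 to 0.54 and -0.29 to -0.11 in the IVS. With 1 lamb left out the LV range was 0.29 to 0.39 for TAF2, 0.27 to 0.38 for ING3 and 0.15 (without CORT replicate 1) to 0.35 for DDX3X, and the IVS range was 0.37 to 0.56 for ING3, 0.032 to 0.13 for TAF2 and -0.29 to -0.12 for DDX3X. No adjusted p of TAF2 or DDX3X in the IVS passed (0.65 to 1.00). Array weights moved DDX3X in the IVS from -0.21 to -0.11. Array weights gave 734 LV probes at an unadjusted p under 0.05. In the IVS slide as a block gave 879 and the replicate block 639, against 228 (without Control replicate 3) to 852 (without Control replicate 8) with 1 lamb left out, also 261, 253 and 708 without Control replicates 1, 2 and 5. The replicate block changed no call of a member, with an adjusted p of 0.81 for TAF2 and 0.80 for DDX3X in the IVS.

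Between the tissues, CORT lambs alone reversed TAF2 (-0.061) and DDX3X (-0.11), and Control lambs alone gave 0.19 for TAF2, -0.26 for ING3 and 0.41 for DDX3X. These values within 1 treatment are a description without a test, since they take in the LV difference that selected the genes. Slides scanned on the same day reversed TAF2 (-0.035), ING3 (0.15) and DDX3X (-0.026). The 34 probes that passed became 13 and 15 with an offset of 0 or 16, 3 with the processed signal, 4 with cyclic loess, 67 and 10 with no or the strictest brightness limit, 15 with trended and robust eBayes, 1428 without the slide block, 1455 with the replicate block, 909 with same-day slides, 0 in either group alone and 14 to 53 with 1 array left out. For TAF2 and ING3 in the LV, cyclic loess reversed r to -0.071. For TAF2 and DDX3X in the IVS, r was 0.43 with the processed signal, 0.33 with slide means removed and 0.41 without 2 lambs, and none of these passed. For ING3 and DDX3X it was -0.73 without 2 lambs, which did not pass, and between -0.79 and -0.76 under the other alternatives, which passed. The causes were not tested.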
